A study of Mus musculus with 8 samples.

Results

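The monocytes described here are the cells that the authors placed in their class Mono, in a study that sequenced the RNA of single cells from whole mouse kidneys. The class held 334 of 77393 cells (0.432%), and it ranked 22 of 28 classes by size. UUO (unilateral ureteric obstruction) kidneys gave 185 of these cells and Control kidneys 149. All mice were C57BL/6 of 7 weeks, and no allele or transgene is named for any group. The obstructed animals had the left ureter tied off and were killed on day 7. The same treatment text stands on the Control samples, which were told apart by title and disease label, so what was done to the Control animals is not known here. The 2 UUO libraries held 97 and 88 monocytes. Controls 1 to 6 held 11, 12, 8, 6, 18 and 94, so that Control 6 alone supplied 63.1% of the Control monocytes.

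Monocytes are blood leukocytes made in the bone marrow. In the mouse the classical kind carries Ly6C on its surface, leaves the blood by way of the chemokine receptor CCR2, and can become a macrophage or a dendritic cell in injured tissue. Obstruction of the ureter is a widely used model of tubular injury, in which such recruitment is well known. Ly6c2, Plac8 and Ccr2, genes that mark these cells, have no values in the tables used here, which give per cell a class, a sample, 3 totals and a position in the embedding. The label Mono was therefore not checked against its markers.

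Libraries held 2263 to 18393 cells and 4375942 to 56755823 UMIs (unique molecular identifiers, each a counted transcript molecule). A chi-square test on the 28 class sizes gave p = 0.0509 for Controls 3 and 4, against at most 4.09e-41 in the other 14 Control pairs. The first value lies at the cut of 0.05 and does not show that the 2 libraries are alike. Monocytes were 3.07% of immune cells in Control 3 and 1.14% in Control 4, on 8 and 6 monocytes. Since p was not under 0.05, Controls 3 and 4 were counted as 1 sample. That left 2 UUO samples and 5 Control samples. With these numbers the exact permutation test has 21 splits and cannot go below p = 0.0476. Whether the samples are separate animals is not stated in the labels, so the p-values speak only of sample-to-sample spread, and that spread may be technical. No 2 monocytes of different libraries shared a cell barcode. Of the monocyte barcodes, 23 also stood in another library under some class, and over all cells 8.48% shared a barcode with a cell of another library.

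The first comparison asked whether obstruction changed how many of the kidney's cells were monocytes. UUO 1 held 0.527% monocytes (exact 95% binomial interval 0.428 to 0.643) and UUO 2 held 0.681% (0.546 to 0.838). Controls 1 and 2 held 0.306% and 0.187%, the pooled Controls 3 and 4 held 0.225%, Control 5 held 0.111% and Control 6 held 0.688% (0.557 to 0.842). Both UUO samples lay above 4 of the 5 Control samples, and Control 6 lay as high as UUO 2. These intervals cover counting error only.

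The mean share was 0.604% ± 0.108 (SD, n = 2) in UUO and 0.303% ± 0.226 (SD, n = 5) in Control. The UUO minus Control difference in log2 odds was 1.23 (95% interval -0.44 to 2.89), which did not pass limma's adjusted p (0.207 over 28 classes). The two-sided exact permutation p was 0.238, and edgeR with TMM scaling gave a difference of 0.64. Limma called 6 of the 28 classes higher in UUO, which is 21.4%, and 8 lower, which is 28.6%. Monocytes ranked 10 of the 15 immune classes in this difference, below the median immune class at 1.77. Without Control 6 the difference was 1.58 (-0.25 to 3.42, limma adjusted p 0.140) and the groups no longer overlapped, with both UUO samples above every remaining Control sample in 21.4% of classes.

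**Figure D1:**
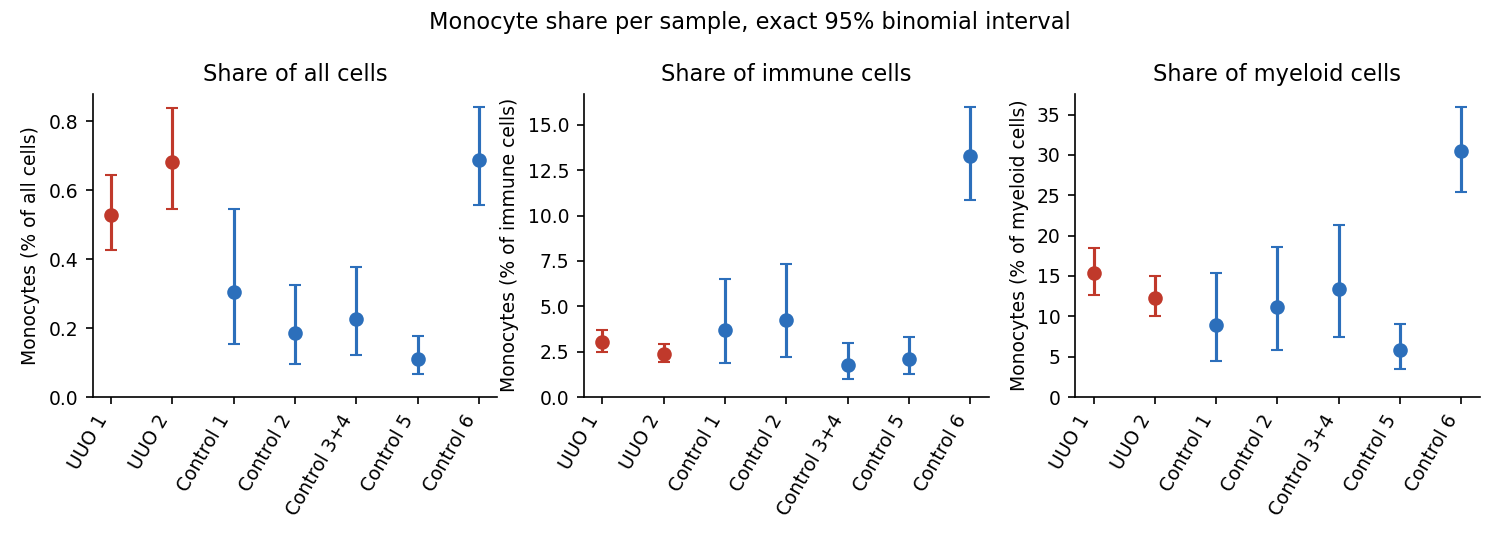
Monocyte share with 3 denominators, namely all cells, immune cells and myeloid cells (y axes, percent) in each sample (x axes, red for UUO and blue for Control), with exact 95% binomial intervals as bars. Control 6 stands above the other Control samples in each panel, at 0.688%, 13.3% and 30.5%.

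A share of all cells depends on how many tubule cells were recovered, so the share of immune cells was taken next. Monocytes made up 3.03% and 2.37% of immune cells in UUO 1 and UUO 2. In Controls 1 and 2 they made up 3.68% and 4.27%, in the pooled Controls 3 and 4 1.78%, in Control 5 2.12% and in Control 6 13.3%. Both UUO samples thus lay inside the range of the Control samples, also with Control 6 left aside. The means were 2.70% ± 0.464 (SD, n = 2) in UUO and 5.02% ± 4.72 (SD, n = 5) in Control. The log2 odds difference was -0.57 (95% interval -2.32 to 1.17, limma adjusted p 0.611 over 15 classes), and without Control 6 it was -0.10. With this denominator limma called 0% of the 15 classes higher and 0% lower, with 2 at an unadjusted p under 0.05, and edgeR called 0, with 1 at an unadjusted p under 0.05.

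Within the myeloid cells the monocyte share was nearly the same on average. Monocytes made up 15.4% and 12.3% of myeloid cells in the UUO samples. In Controls 1 and 2 they were 8.87% and 11.1%, in the pooled Controls 3 and 4 13.3%, in Control 5 5.83% and in Control 6 30.5%. The means were 13.9% ± 2.17 (SD, n = 2) in UUO and 13.9% ± 9.68 (SD, n = 5) in Control. The log2 odds difference was 0.18 (95% interval -1.56 to 1.91, limma adjusted p 0.941 over 6 classes), and its sign changed without Control 5 (-0.11) or without UUO 1 (-0.0096). Without Control 6 it was 0.58. Limma and edgeR called 0 of the 6 classes, with 2 at an unadjusted p under 0.05 in limma and in edgeR on sample totals.

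Monocytes were then counted per cell of each other myeloid class, which tests whether their difference between groups was unlike that of a related class. Against macrophages (Macro), tissue phagocytes that monocytes can give rise to, there were 2.20 and 1.33 monocytes per macrophage in UUO 1 and UUO 2. Controls 1 and 2 had 0.159 and 0.255, the pooled Controls 3 and 4 had 0.667, Control 5 had 0.40 and Control 6 had 2.54. Monocytes outnumbered macrophages in both UUO samples and in Control 6, and macrophages outnumbered monocytes in the other 4 Control samples. The log2 difference of this ratio was 1.78, a 3.44-fold higher geometric mean in UUO, and it did not pass (two-sided exact permutation p = 0.238, Benjamini-Hochberg p = 0.714 over 5 ratios). The log2 difference was 0.75 in the libraries over 10000 cells and 2.37 without Control 6. A ratio can change through its denominator. The macrophage share had log2 odds differences of -2.46 among immune cells and -2.02 among myeloid cells (limma adjusted p 0.240 and 0.138). For the monocyte share they were -0.57 and 0.18.

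Against neutrophils (Neutro), short-lived phagocytes that also come from blood, the ratio was 0.243 and 0.240 in the UUO samples. It was 0.611, 0.429, 0.318, 0.0896 and 0.639 in Control 1, Control 2, the pooled Controls 3 and 4, Control 5 and Control 6. The UUO values lay between Control 5 and the other Control samples, with a log2 difference of -0.53 (exact permutation p = 0.524). It was -1.01 without Control 5 and -0.31 without Control 6. Per conventional dendritic cell (DC), which presents antigen to T cells, there were 2.31 and 1.19 monocytes in UUO and 0.733 to 5.88 in Control, a log2 difference of 0.24. Per plasmacytoid dendritic cell (pDC), a source of type I interferon, there were 7.46 and 1.6 monocytes in UUO and 1.10 to 7.83 in Control, a log2 difference of 0.81. Per basophil (Baso), a rare granulocyte, there were 2.85 and 1.35 monocytes in UUO and 2.0 to 47.0 in Control, a log2 difference of -1.52. That Control range rests on as few as 1 basophil in a sample, and without Control 6 the log2 difference was -0.83. None of the 5 ratios had groups that did not overlap, and the Benjamini-Hochberg p was at least 0.714 for each (exact permutation tests).

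**Figure D2:**
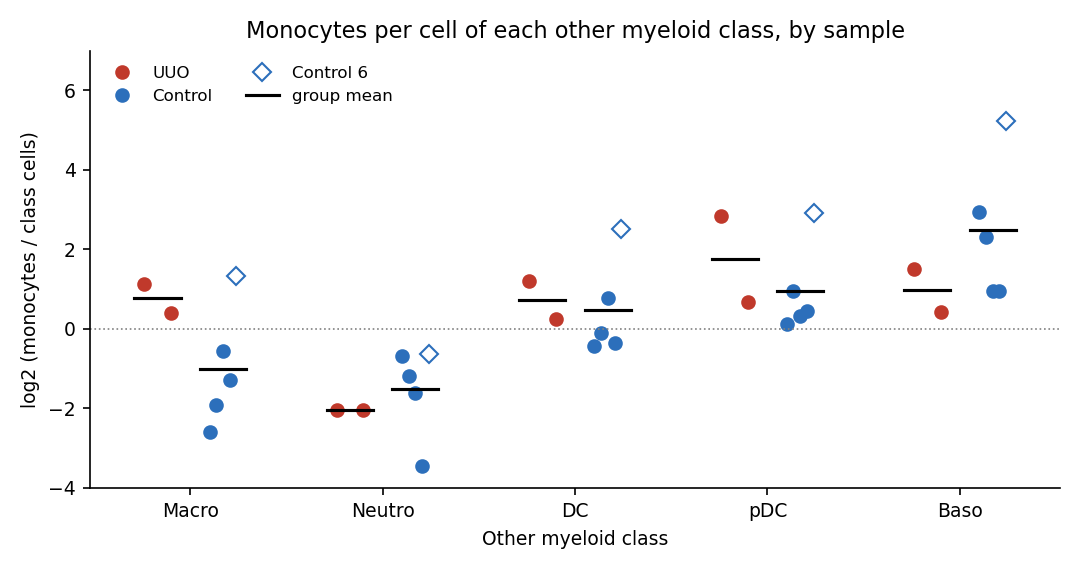
Log2 of the number of monocytes per cell of each other myeloid class (y axis, 0 means equal numbers) for each class (x axis), with UUO samples in red left of the Control samples in blue, Control 6 as an open diamond and black lines at group means. Control 6 lies highest of the Control samples for all 5 classes, with 2.54 monocytes per macrophage and 47.0 per basophil.

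Median UMIs per monocyte were higher in both UUO samples than in any Control sample, a difference that most other classes shared in direction and that did not pass over all classes. Cells are not replicates, so the sample median was the value compared. The medians were 2345 and 3019 UMIs in UUO 1 and UUO 2. They were 1462 in Control 1, 1617 in Control 2, 2051 in the pooled Controls 3 and 4, 1903.5 in Control 5 and 1407.5 in Control 6. Both UUO medians lay above every Control median, though 4 of the 5 Control medians rest on 11 to 18 cells. The means of the medians were 2682 ± 477 UMIs (SD, n = 2) in UUO and 1688 ± 280 (SD, n = 5) in Control. The ratio was 1.59 (95% interval 1.04 to 2.44), which did not pass limma's adjusted p (0.117 over 26 classes), while the exact permutation p for monocytes alone was 0.0476, the smallest it can give. Without Control 5 the log2 difference was 0.72 (limma adjusted p 0.0294 over 25 classes). How many other classes also passed with that sample left out was not counted.

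Across the 26 classes, 23 had a UMI ratio above 1 between UUO and Control, with a median of 1.37, and 6 classes had a larger ratio than monocytes. Both UUO samples exceeded every Control sample in 10 of 26 classes, which is 38.5%, and limma called 4 classes, which is 15.4%. Macro, Neutro, DC and pDC were among the 10, so every myeloid class that was fitted shared this lack of overlap. Macro, Neutro and DC were also among the 4 that limma called. Their ratios were 1.99, 2.68 and 1.85, each larger than that of monocytes. The count of molecules mixes library depth with the RNA content of cells, so each monocyte median was divided by the median of all other immune cells of the same sample. That quotient was 1.08 and 1.33 in the UUO samples and 1.14, 1.03, 1.17, 0.916 and 0.924 in Control 1, Control 2, the pooled Controls 3 and 4, Control 5 and Control 6. The groups then overlapped, at a UUO to Control ratio of 1.16 (limma 95% interval 0.936 to 1.45, adjusted p 0.352, exact permutation p 0.190). The other immune cells are a mix of classes that varied between samples, so this quotient depends on that mix as well as on depth. Quotients against Macro, Neutro and DC singly went the other way, with log2 differences of -0.33, -0.75 and -0.14. Without mitochondrial molecules the monocyte medians were 2272 and 2799 UMIs in UUO and 1181 to 1976 in Control, a ratio of 1.75 (limma adjusted p 0.0584). Both of these comparisons were chosen after the data were seen.

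Set beside like classes of the same sample, monocytes held 0.775 and 1.09 times the UMIs of macrophages in UUO, and 1.07 to 1.32 times in Control. They held 0.465 and 0.542 times the UMIs of neutrophils in UUO, and 0.617 to 1.41 times in Control. The neutrophil quotients did not overlap between groups and the macrophage quotients did. Such quotients were formed against 3 classes only, so no share over all classes stands beside this. The log2 differences of these quotients, UUO minus Control, were -0.33 against macrophages and -0.75 against neutrophils, and neither passed (exact permutation p = 0.0952 for each, Benjamini-Hochberg p = 0.143 over 3 classes, added after the data were seen). With cells under 10% mitochondrial UMIs alone, which dropped Control samples, the log2 difference was -1.05 against macrophages and -0.14 against neutrophils. Without UUO 1 it was -0.083 against macrophages, and without UUO 2 -0.58, while without Control 5, whose neutrophils had a median of 34.2% mitochondrial UMIs, it was -0.67 against neutrophils. Against dendritic cells, with 4 Control samples of at least 10 such cells, monocytes held 0.437 and 0.416 times the UMIs in UUO and 0.408 to 0.518 times in Control (exact permutation p = 0.333).

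Genes detected per monocyte followed the UMIs. The medians were 1049 and 1153 genes in UUO 1 and UUO 2, and 682, 800, 967.5, 746.5 and 706.5 in Control 1, Control 2, the pooled Controls 3 and 4, Control 5 and Control 6. Again both UUO medians lay above every Control median, as in 38.5% of the 26 classes, Macro, Neutro and DC among them. The ratio was 1.42 (95% interval 1.03 to 1.95, limma adjusted p 0.117, exact permutation p 0.0476), and limma called 19.2% of the classes higher. Single monocytes ran from 322 to 2871 genes.

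To set depth aside, genes were compared with the number that a common curve over all monocytes gives for a cell's UMIs. UUO 1 and UUO 2 lay at 1.04 and 0.995 times the curve, and the Control samples lay between 0.886 in Control 5 and 1.01 in the pooled Controls 3 and 4. The UUO to Control ratio at matched UMIs was 1.06 (95% interval 0.975 to 1.15, limma adjusted p 0.594), and the groups overlapped. Both UUO samples exceeded every Control sample by this measure in 19.2% of classes, and limma called 0 classes, with 2 at an unadjusted p under 0.05.

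**Figure D3:**
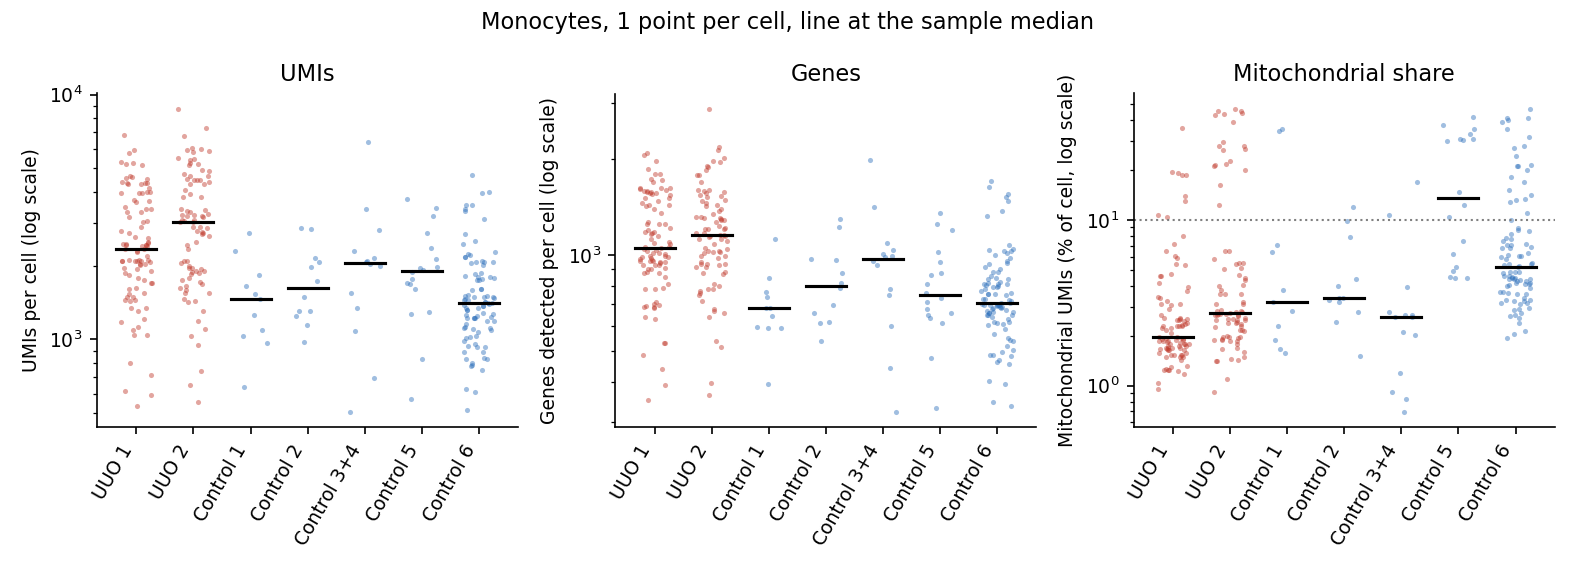
UMIs, genes detected and mitochondrial percentage (y axes, log scales) of each monocyte, by sample (x axes, red for UUO and blue for Control), with a black line at the sample median and a dotted line at 10% mitochondrial UMIs. The UUO medians of 2345 and 3019 UMIs lie above every Control median, and Control 5 has the highest mitochondrial median, 13.5%.

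The mitochondrial percentage, in which high values can mark damaged cells, varied more among Control samples than between groups. Its median in monocytes was 1.97% and 2.75% in UUO 1 and UUO 2. It was 3.20% in Control 1, 3.38% in Control 2, 2.59% in the pooled Controls 3 and 4, 13.5% in Control 5 and 5.23% in Control 6. UUO 1 was lowest, and UUO 2 lay just above the pooled Controls 3 and 4. The difference of the medians was -3.22 percentage points (95% interval -10.8 to 4.30, limma adjusted p 0.992 over 26 classes), and without Control 5 it was -1.24. In the libraries over 10000 cells, which leave Controls 5 and 6 as the Control samples, it was -7.02 (limma adjusted p 0.217). With all samples kept, limma called 0% of classes in either direction, with 0 at an unadjusted p under 0.05.

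At or above 10% mitochondrial UMIs lay 67 of the 334 monocytes (20.1%). These were 9 of 97 cells in UUO 1 (9.28%, exact 95% interval 4.33 to 16.9) and 19 of 88 in UUO 2 (21.6%, 13.5 to 31.6). In Control they were 2 of 11, 1 of 12, 2 of 14, 11 of 18 (61.1%, 35.7 to 82.7) and 23 of 94 (24.5%, 16.2 to 34.4) for Control 1, Control 2, the pooled Controls 3 and 4, Control 5 and Control 6. Control 5 had the highest share, and both UUO shares lay within the spread of the other Control samples. The log2 odds difference was -0.89 (95% interval -3.46 to 1.68, limma adjusted p 0.887), where limma called 0% of classes, with 0 at an unadjusted p under 0.05. It was -0.33 without Control 5, -0.20 without UUO 1 and -1.58 without UUO 2. Monocytes at or above 10% had medians of 2004 UMIs and 840 genes, and those under 10% had 1995 UMIs and 952 genes. With only cells under 10% kept in every class, the monocyte share of all cells differed by 1.54 in log2 odds (limma adjusted p 0.155).

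In the authors' UMAP embedding, which places cells of like expression close together without a true scale of distance, monocytes formed 1 compact group beside the neutrophils. The embedding holds no cells of the class PT (proximal tubule). Among the classes it holds, the medians nearest to that of the monocytes were Neutro at 1.79 units, DC at 2.46, pDC at 2.90 and Macro at 3.90. Of the 30 nearest cells of a monocyte, 89.7% were monocytes on average and 9.56% neutrophils, while macrophages and dendritic cells made up 0%. Neutrophils thus were 93.1% of the neighbours outside the class. For 217 monocytes (65.0%) all 30 neighbours were monocytes, and 29 monocytes had neutrophils for at least 50% of theirs. Those 29 had medians of 2295 UMIs and 840 genes, and the other monocytes had 1995 UMIs and 942 genes.

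Most monocytes lay near the centre of the class, at a median of 0.351 units from it, and 95% lay within 0.948. The class median was the closest one for 316 of them, the neutrophil median for 17, and 1 monocyte lay 6.46 units away. The share of monocytes among neighbours was 88.3% and 93.1% in the UUO samples and 86.3% to 99.4% in the Control samples, and did not separate the groups (difference -0.25 percentage points, exact permutation p 0.952).

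**Figure D4:**
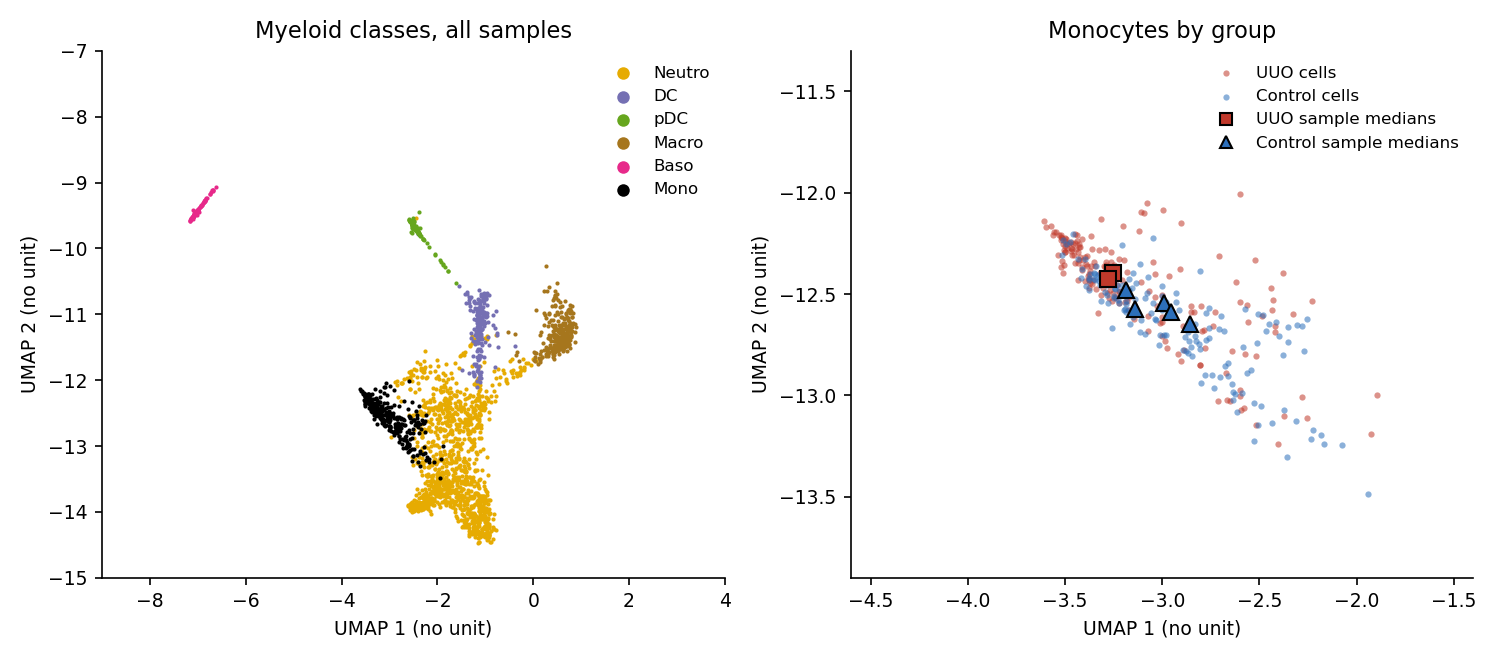
UMAP positions (both axes without unit) of the 6 myeloid classes in all samples (left) and of monocytes alone (right), where red points and squares are UUO cells and sample medians, and blue points and triangles are Control cells and sample medians. The axes leave out 4 cells on the left and 1 monocyte on the right. Monocytes adjoin the neutrophils, and both UUO medians lie to the upper left of every Control median. Other classes were not compared in this way.

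Within the class, the medians of the second coordinate were -12.40 and -12.43 in UUO 1 and UUO 2, and -12.65 to -12.48 in the Control samples. Those of the first were -3.26 and -3.28 in UUO and -3.19 to -2.86 in Control. Neither coordinate overlapped between groups, and the group means were 0.287 units apart. Positions of other classes were not compared between groups, so whether the shift is particular to monocytes is not known. The exact permutation test of position gave p = 0.0952. UUO cells made up 55.4% of monocytes, 61.6% of the 10 nearest monocytes of a UUO monocyte and 45.6% of those of a Control monocyte. These shares are averages over cells, not samples, and 94 of the 149 Control monocytes came from Control 6. The shares therefore cannot tell group from library. Within samples, cells with more UMIs lay lower on the second coordinate, with a Spearman correlation across cells of -0.392 in UUO 1 (97 cells), -0.63 in UUO 2 (88 cells) and -0.176 in Control 6 (94 cells). These correlations are across cells that share a library and depth. Between groups, the UUO samples had both the higher UMI medians and the higher second coordinates. The part of depth in the shift between groups was not tested.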

How the data were processed

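Cells of whole mouse kidney were barcoded on the 10x Genomics Chromium platform and sequenced from their 3′ ends, as the labels' protocols state. The submitters' processing notes name Cell Ranger 6.0.1, Seurat 4.0.1 and the build mm10, with roles and settings not given in the sources used here. UMIs and genes per cell are whole, unnormalized counts made by the authors. Mitochondrial values are the percent of UMIs in a cell that come from mitochondrial genes, per the file headers. The deposited UMAP coordinates are a score with no unit, and cover 25200 cells, with all 334 monocytes and no cell of class PT included. All per-sample columns were used. Classes are the authors', no gene-level table was analysed here, and no doublet caller could be run on such values. The table ends at 298 and 2998 genes and 50.0% mitochondrial UMIs.

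Groups came from the titles. Members and comparisons were chosen with earlier results of these data known. The text names Mono, sets Macro, Neutro and the classes with DC in their names beside it, and adds Baso as the remaining myeloid class of the ratios. Shares were compared as log2((n + 0.5)/(N - n + 0.5)) per sample with limma 3.58.1 in R 4.3.3 over all classes (28 of all cells, 15 immune, 6 myeloid), with Benjamini-Hochberg adjustment and a threshold of 0.05. The variance is shared across classes, so an interval does not measure a class's own spread. Medians of log2 UMIs, log2 genes and mitochondrial percentage, and mean residuals of log2 genes from a quadratic in log2 UMIs, were fitted likewise. A class needed 2 samples per group with enough cells. The intended minimum of 20 cells left monocytes with 1 Control sample, so a minimum of 10 took its place, with 26 classes. Ratios and embedding values were compared by two-sided exact permutation tests. The scripts were tested on simulated data. Alternatives were edgeR 4.0.16, other scales, offsets and filters, separate samples, the replicate block and leaving out each sample.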

Additional observations from a re-analysis of the deposited data

Results flagged for a closer look

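Of 16 monocyte measures, each looked at over the 5 Control samples for a sample far from the rest (gap to the nearest sample over the whole range above 0.71), 6 stood out on the scale of percentages and plain ratios. On the log scale used for the tests of the shares and ratios, and on the log2 scale for the mitochondrial percentage, their gaps were 0.46 to 0.695 of the range and 0 of the 6 passed (added after the data were seen). Chance alone flags about 1 in 20 groups of normally distributed values, and plain ratios are skewed. Control 6 accounted for 5 of the 6, which share 1 count of 94 monocytes and so are not separate. Monocytes were 13.3% of its immune cells, against 1.78% to 4.27% in the other Control samples. It held 2.54 monocytes per macrophage (0.159 to 0.667 in the others), 5.88 per dendritic cell (0.733 to 1.75), 7.83 per plasmacytoid dendritic cell (1.10 to 2.0) and 47.0 per basophil (2.0 to 11.0). In Control 5 the median mitochondrial percentage of monocytes was 13.5%, against 2.59% to 5.23% in the other Control samples, and it rests on 18 cells.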

How the results depend on the processing

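The monocyte share of all cells kept its sign and did not pass under any alternative run, at log2 odds differences of 0.93 to 1.58 when each sample was left out, 0.64 with edgeR and TMM scaling, and 1.66 among cells outside PT (limma adjusted p 0.0724, an alternative added after the data were seen). The share of immune cells kept its sign too, at -0.86 to -0.10 with each sample left out, -1.04 with edgeR and TMM scaling and -1.08 in the libraries over 10000 cells. The share of myeloid cells, 0.18, changed sign in the libraries over 10000 cells (-0.0575), with edgeR on sample totals (-0.0305) or TMM scaling (-0.0597), and ran from -0.11 to 0.58 with each sample left out; it passed under no alternative. Monocyte UMIs per cell differed by 0.67 on the log2 scale, and this difference ran from 0.49 to 0.86 with each sample left out. The unadjusted exact permutation p was 0.0476, the smallest it can give. Genes per cell differed by 0.51, with the same exact permutation p. For each measure both UUO samples exceeded every Control sample in 38.5% of the 26 classes. Without Control 5 the limma adjusted p for UMIs was 0.0294 over 25 classes. How many other classes passed without Control 5, or with the replicate block, was not counted, so these passes are not particular to monocytes as far as known. The replicate block gave 0.79 for UMIs (limma adjusted p 0.00806) and 0.57 for genes (0.0165); the groups share only the numbers 1 and 2, whose samples' deviations correlated at -0.333 and 0.0554 over classes, so the numbers are not taken to pair samples. The log2 monocyte to DC ratio, 0.24, was -0.36 in the libraries over 10000 cells and ran from -0.23 to 0.75 with each sample left out, and that to pDC, 0.81, ran from -0.28 to 1.90. Those to Macro, Neutro and Baso kept their signs, at 1.39 to 2.37, -1.01 to -0.31 and -2.05 to -0.83 with each sample left out, and at 0.75, -0.00044 and -2.13 in the libraries over 10000 cells. The mitochondrial median difference kept its sign too, at -3.97 to -1.24 percentage points with each sample left out and -0.93 with the replicate block, and the log2 odds of cells at or above 10% ran from -1.58 to -0.20, with -2.03 in the libraries over 10000 cells and -0.094 with the replicate block. UMIs against macrophages ran from -0.58 to -0.083. The neighbour share difference, -0.25 percentage points, was 1.0 with 60 neighbours and 3.28 with cells under 10% mitochondrial UMIs, and ran from -1.48 to 2.66. The cause of these changes was not tested. Where a sample is left out, the exact test cannot reach 0.05. The minimum of 20 cells gave no value for monocytes, and with cells under 10% mitochondrial UMIs alone only 3 Control samples kept 10 of them. With 11 to 18 monocytes in 4 of the 5 Control samples, cell numbers limit the precision.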
